A study of Mus musculus with 2 samples.

Results

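Long intergenic non-coding RNA (lincRNA) genes are transcription units outside protein-coding genes whose RNAs are not translated into a known protein. The genes described here are all those typed lincRNA in the deposited GENCODE M21 models on mm10 that held at least 1 read in a library. They numbered 876 of the 5854 annotated lincRNA genes (15.0%) and made up 876 of the 18510 annotated genes with a read. Replicate 1 held reads on 646 of them, replicate 2 on 601, and 371 were seen in both libraries. Only 111 had 10 or more reads over both libraries, 18 had 50 or more, and 399 (45.6%) rested on a single read.

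The tissue was the left cerebral cortex of female B6CASTF1/J mice aged 14 days, a first-generation cross of the C57BL/6J and CAST/EiJ strains. Total RNA (2 µg per library) with ERCC spike-ins (Ambion mix 1) and Lexogen set 4 SIRV spike-ins was sequenced as long reads in 2 libraries of this single group, labelled biological replicates 1 and 2. Neither another tissue nor a treatment stood beside them, so the data describe how lincRNA genes were transcribed and spliced in this tissue and how far the libraries differed. By its description, replicate 1 may be pooled tissue of 3 females, whereas replicate 2 names a single female, and both carry the same strain-level donor entry, so a p-value here weighs only the difference between these samples. The parental alleles were not analysed separately here.

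Long-read sequencing aims to read an RNA molecule from end to end, so each read reports the exons joined in the part it covers. Reads of a part of a molecule were not set apart here. Levels are RPM, reads per 1000000 mouse reads, and were not divided by length because a read is taken to stand for a molecule whatever its length. Any loss of long molecules was not tested. Depth was 1072344 mouse reads in replicate 1 and 753520 in replicate 2, so a read was worth 0.933 and 1.33 RPM. A gene without reads could stand at up to 2.80 RPM in replicate 1 and 3.98 RPM in replicate 2 (3 reads). Such limits, and the intervals given below, cover counting error only. Among markers of the tissue label, excitatory neuron (Slc17a7, 1334 and 839 reads), astrocyte (Aldoc, 1423 and 968) and microglial (P2ry12, 116 and 88) genes were present, and the cerebellar genes Pcp2 and Cbln3 had no read. The striatal markers Ppp1r1b (302 and 136 reads) and Drd1 (22 and 16) were present. Among oligodendrocyte genes, Mbp stood at 3673 and 2142 RPM and Mog at 4.66 and 6.64 RPM (5 and 5 reads). Choroid plexus Ttr stood at 25.2 and 256 RPM, while Kl had no read and Folr1 had 0 and 1. The part of these markers in any lincRNA difference was not tested.

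LincRNAs are transcribed by RNA polymerase II, and most are capped, spliced and polyadenylated like messenger RNAs. They are known for low and tissue-restricted levels, and some act in the nucleus on chromatin or splicing, some bind proteins in the cytoplasm, and some serve mainly as precursors of small RNAs. Brain expresses a large repertoire of them, with several linked to neuronal differentiation.

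The most abundant lincRNA gene, 2900097C17Rik, is the mouse locus of Norad, a cytoplasmic RNA known for binding Pumilio proteins. Its transcript is a single exon of 4915 bases on the minus strand of mm10 chr2:156388065-156392979. The Pumilio element TGTANATA, searched on the RNA's own strand with overlapping matches counted, occurred 11 times in it, or 2.24 times per 1000 bases. No other of the 3598 annotated lincRNA transcripts of 1000 bases or more held as many (the most in another gene was 9), and 77.7% held none. The stretch below is shown because it holds 3 of the 11 matches, in capitals, within 240 bases (bases 2226 to 2465 of the transcript, chr2:156390515-156390754, minus strand).
2900097C17Rik: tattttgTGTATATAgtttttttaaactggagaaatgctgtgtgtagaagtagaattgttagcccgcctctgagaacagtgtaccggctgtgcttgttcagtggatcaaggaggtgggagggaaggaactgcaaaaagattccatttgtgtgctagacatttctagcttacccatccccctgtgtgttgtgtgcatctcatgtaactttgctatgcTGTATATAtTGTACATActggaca

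Miat, a nuclear RNA of neurons also known as Gomafu, is known for tandem ACTAAC repeats bound by splicing factors. An annotated Miat transcript of 9163 bases and 7 exons held ACTAAC 11 times. Among the same 3598 transcripts, 3 from 2 genes, Miat included, held as many, and 23.7% held the motif at all. The 240 bases of its last exon below (chr5:112217265-112217504, minus strand) carry 4 of the matches, in capitals.
Miat: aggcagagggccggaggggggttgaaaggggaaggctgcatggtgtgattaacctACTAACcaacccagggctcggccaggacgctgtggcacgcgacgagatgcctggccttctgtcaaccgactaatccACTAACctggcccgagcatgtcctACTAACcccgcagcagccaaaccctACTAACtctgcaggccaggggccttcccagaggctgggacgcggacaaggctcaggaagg

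Several lincRNAs carry microRNA hairpins, and the mature sequences below are shown because their host genes are among those with most reads. The RefSeq table (GRCm38.p6) matched 11 of the 16 microRNA genes inside lincRNA genes with 10 or more reads. Seeds (bases 2 to 8) are in capitals. The miR-9 arms are encoded at all 3 miR-9 loci, and each of these loci lay in a lincRNA gene with reads.
miR-9-5p: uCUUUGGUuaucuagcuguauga
miR-9-3p: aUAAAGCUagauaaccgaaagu
miR-770-5p: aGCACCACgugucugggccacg
miR-770-3p: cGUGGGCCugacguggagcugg

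The lincRNA genes together took 3716 reads in replicate 1, or 0.347% of mouse reads (Wilson 95% interval 0.336 to 0.358), and 3167 reads in replicate 2, or 0.420% (0.406 to 0.435). The share was higher in replicate 2, and it was also higher there (0.267% and 0.316%) without the 2 most abundant genes, 2900097C17Rik and Meg3. The median level of a lincRNA gene with a read was 1.03 RPM, against 17.8 RPM for protein-coding genes, 1.13 RPM for antisense genes and 10.8 RPM for all annotated genes with a read. Among genes with 10 or more reads the medians were 9.97 RPM for lincRNA genes and 32.7 RPM for protein-coding genes. Of 22028 annotated protein-coding genes 67.8% had a read, and of 2959 antisense genes 32.1% had. Reads were concentrated: the 2 leading genes held 22.9% and 24.8% of lincRNA reads and the 10 leading genes 38.5% and 40.8%, whereas the 10 leading protein-coding genes held 4.88% and 4.74% of theirs.

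2900097C17Rik had 513 reads in replicate 1 and 366 in replicate 2, or 482 ± 5.18 RPM (mean ± SD, n = 2 libraries here and below). The libraries did not separate for it, with a log2 ratio of replicate 2 over replicate 1 of 0.02. Its reads fell almost wholly on annotated single-exon models, 304 and 241 on the 4915-base transcript and 208 and 125 on a second transcript of 339 bases near its 5′ end. The deposited length is that of the annotated model and not of the read, so the reads on the shorter transcript are not shown to end there. That shorter transcript is also identical over its whole length to Gm7292 on chromosome 6, a lincRNA gene with no read in either library.

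Meg3, the maternally expressed lincRNA of the imprinted Dlk1-Dio3 region, had 338 reads in replicate 1 and 418 in replicate 2, or 315 and 555 RPM. It lies on chr12:109541001-109571726, plus strand. Imprinted genes are expressed from the copy of a single parent. The gene was more abundant in replicate 2, with values in the test between libraries below. Of the other lincRNA genes on the imprinted list, Mirg, which is a microRNA host farther along the same region, had 3 and 4 reads, and H19 had none in either library. Rian, which lies between Meg3 and Mirg and is typed as a processed transcript, had 21 and 12 reads.

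**Figure D1:**
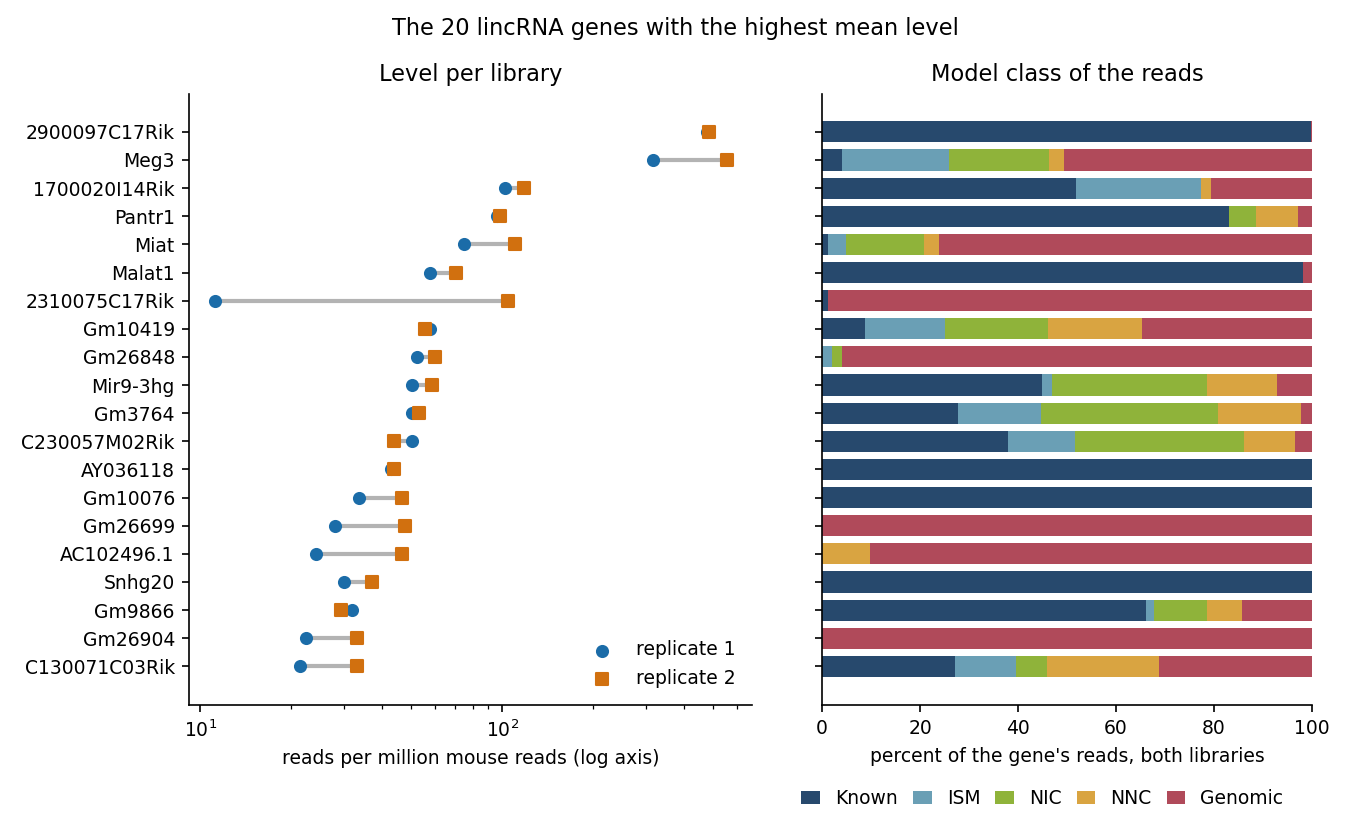
The 20 lincRNA genes with the highest mean level: left, the level in each library in RPM on a log axis (circles, replicate 1; squares, replicate 2; the grey bar joins them); right, the percentage of the gene's reads over both libraries on each class of model. 2900097C17Rik and Meg3 stand at 315 RPM or more in both libraries, while 2310075C17Rik shows the widest gap, 11.2 and 105 RPM, and rests on Genomic models.

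Among RNAs known to stay in the nucleus, Malat1, an abundant RNA of splicing speckles, had 62 and 53 reads (57.8 and 70.3 RPM). All but 2 of these reads fell on its annotated single-exon transcript of 6983 bases. Miat had 80 and 83 reads (74.6 and 110 RPM). Neat1, the scaffold of paraspeckles, had 2 and 1 reads, and Rmst, a regulator of neurogenesis, 2 and 2, both at or under the limit that a count of 0 allows. Of the 6 lincRNA genes on the list of nuclear-retained RNAs all 6 had a read, 4 had 10 or more, and the median level was 43.9 RPM.

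Xist, the RNA that coats the inactive X chromosome in female cells, had 18 and 23 reads (16.8 and 30.5 RPM). None of them was on a multi-exon model. Of these reads 17 and 20 fell on a single-exon model of 466 bases at the 5′ end of the gene (chrX:103482789-103483254, minus strand), while annotated Xist transcripts have up to 7 exons. That model lies wholly in annotated exon sequence of Xist, so its reads do not show whether the RNA was spliced. The rest of the gene held 1 and 3 reads. Tsix, the antisense transcript that overlaps this model on the opposite strand, had 16 and 8 reads. Jpx, an activator of Xist, had 10 and 4 reads and Ftx, a neighbouring regulator, 5 and 2, with reads on multi-exon models in both libraries for Jpx (85.7% of its reads).

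Among lincRNA genes known from neural tissue, 1700020I14Rik had 110 and 89 reads (110 ± 11.0 RPM) and Pantr1, which is divergent from the neural transcription factor gene Pou3f3 with starts 926 bases apart, had 103 and 74 (97.1 ± 1.52 RPM). Pou3f3 itself had 16 and 20 reads, fewer than its lincRNA neighbour in both libraries. C130071C03Rik had 23 and 25 reads (27.3 ± 8.29 RPM) and A330008L17Rik, divergent from the cadherin gene Cdh8 with starts 171 bases apart, 5 and 6. Lhx1os, Otx2os1 and Gm12688 had no read in either library. Of the 12 lincRNA genes on the neural list 9 had a read and 6 had 10 or more.

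Small nucleolar RNA hosts release small RNAs that guide modification of ribosomal RNA from their introns, and the 6 lincRNA genes of this kind all had a read. Snhg20 led with 32 and 28 reads (33.5 ± 5.17 RPM), followed by Snhg6 with 14 and 5. Snhg10 and Snhg12 had 6 and 4 reads each. Their reads were nearly all spliced: 91.7% for Snhg20, 90.0% for Snhg10 and all for Snhg6 and Snhg12. Among RNAs linked to decay or the cytoplasm, Pvt1, the neighbour of Myc, had 21 and 6 reads and Epb41l4aos 4 and 4. Hotair, Hottip and Trp53cor1 had none, which allows up to 2.80 and 3.98 RPM.

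All 3 miR-9 loci lay in lincRNA genes with reads. miR-9 is among the most abundant microRNAs of brain and acts in neural progenitors. Gm3764, around Mir9-1, had 54 and 40 reads (51.7 ± 1.93 RPM), Mir9-3hg, around Mir9-3, had 54 and 44 (54.4 ± 5.68 RPM), and C130071C03Rik, around Mir9-2, had the 23 and 25 given above. Each was mostly spliced, with 92.6%, 92.9% and 68.8% of reads on multi-exon models. Mir124-2hg and Mir124a-1hg, hosts of the neuronal microRNA miR-124, had 6 and 11 and 6 and 9 reads. Mir670hg had 9 and 5, while Mir17hg, Mir155hg and Mir142hg had none. Over the annotation 66 lincRNA genes contained a microRNA gene, of which 32 had a read and 11 had 10 or more.

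In 4 genes, single-exon models began at the last base of an annotated microRNA hairpin that sits in an exon of the host. During microRNA biogenesis the Microprocessor cuts such a hairpin out of its host transcript. In Meg3, 58 reads of replicate 1 (a model of 4627 bases) and 21 of replicate 2 (1773 bases) started at chr12:109563785, the last base of Mir770. In C130071C03Rik, 5 reads of replicate 1 started at chr13:83738885, the last base of Mir9-2. The hairpins are shown with their mature arms in capitals, and the final letter is the base where these models start. The 3′ mature arms end before that base, at chr12:109563765 for miR-770-3p and chr13:83738879 for miR-9-3p.
Mir770: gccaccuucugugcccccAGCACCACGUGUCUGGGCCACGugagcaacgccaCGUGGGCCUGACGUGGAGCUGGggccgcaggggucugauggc
Mir9-2: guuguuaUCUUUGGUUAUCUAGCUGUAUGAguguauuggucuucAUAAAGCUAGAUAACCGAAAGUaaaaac

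In Mir124a-1hg, 9 reads of replicate 2 started at the last base of Mir3078 (chr14:64591271), and in 6720427I07Rik a single read of replicate 1 did so at Mirlet7d. No single-exon lincRNA model ended at the first base of a hairpin. In the other library the model of C130071C03Rik started at chr13:83738954 and that of Mir124a-1hg at chr14:64592552. Ends of single-exon models can be set by the modelling to annotated ends, and the reads' own first bases were not analysed here, so how the starts arose was not tested.

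LincRNA reads were on multi-exon models far less often than protein-coding reads. This is not the share of spliced RNAs. A single-exon model that lies within an exon, as in Miat (59 and 62 reads), does not show whether its RNA was spliced. In replicate 1, 46.3% of lincRNA reads were on multi-exon models, with a Wilson 95% interval from 44.7 to 48.0. In replicate 2 the share was 43.0%, with an interval from 41.3 to 44.8. Protein-coding genes had 90.3% and 89.6%, and antisense genes 32.4% and 27.7%. Libraries are shared by all gene types, so these shares are given as descriptions with no test between types. Without 2900097C17Rik and Meg3 the lincRNA shares were 54.5% and 48.2%.

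The median lincRNA read came from a model of 1 exon in both libraries, against 7 for protein-coding genes. Among multi-exon reads the median was 3 exons (protein-coding 8 and 7), 31.5% and 31.2% had 2 exons, and 16.2% and 19.8% had 6 or more. The median spliced length of the model behind a lincRNA read was 1741 bases in replicate 1 and 1839 in replicate 2, and for protein-coding genes 2250 and 2222. Multi-exon lincRNA reads had medians of 1627 and 1683 bases and single-exon reads 1831 and 2234. Weighted by reads in this way, the multi-exon lincRNA models were not the longer ones. The single-exon medians include 304 and 241 reads on the 4915-base model of 2900097C17Rik, and medians over models were not taken.

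**Figure D2:**
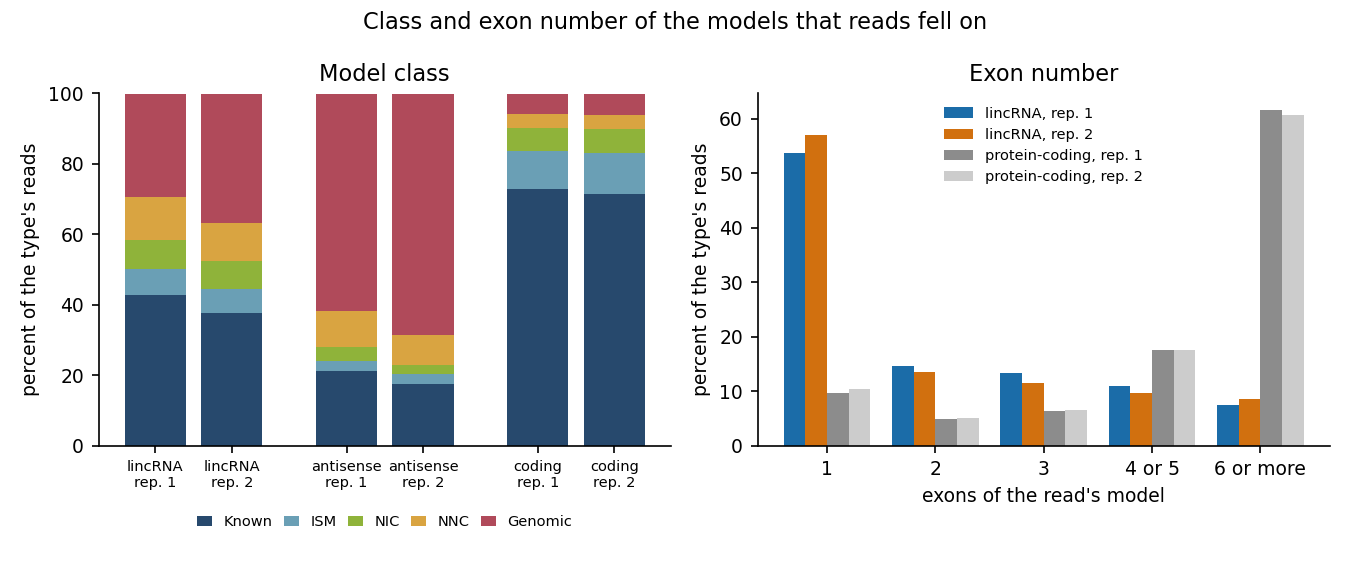
Left, the percentage of reads on each class of model for lincRNA, antisense and protein-coding genes, by library; right, the percentage of reads by the exon number of their model for lincRNA and protein-coding genes. Single-exon models hold the largest share of lincRNA reads in both libraries, and models with 6 or more exons hold the largest share of protein-coding reads.

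The authors sorted models into classes, and lincRNA reads were spread over all of them. Known models, which match an annotated transcript, held 42.7% and 37.7% of lincRNA reads, against 72.8% and 71.4% of protein-coding reads. Incomplete splice matches (ISM), by name a stretch of an annotated chain of introns, held 7.45% and 6.79%. Chains labelled as combining annotated splice sites in another way (NIC) held 8.18% and 7.99%. Chains labelled as having at least 1 splice site outside the annotation (NNC) held 12.4% and 10.7%. The models did not always meet these definitions. A 7-exon ISM chain of Meg3 (9 and 9 reads) had 2 splice sites outside the annotation. A 9-exon Meg3 chain with as many was NIC in replicate 2, and 48 ISM reads of 1700020I14Rik in replicate 1 were on a single-exon model. Genomic models, which overlap a gene without following its splicing, held 29.3% and 36.8%, against 5.75% and 6.20% of protein-coding reads and 61.8% and 68.7% of antisense reads.

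Of the 111 lincRNA genes with 10 or more reads, 28 had only single-exon reads, 18 only multi-exon reads and 65 both, with a median of 68.8% multi-exon reads per gene. Annotation gives multiple exons to 102 of them, and 22 of these had no multi-exon read. No read on a Known model was found for 38 genes, and 20 rested on Genomic models alone. The gene medians of model length ran from 128 to 8487 bases.

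Genomic models did not all lie where the lincRNA exons are. Of the 1088 and 1166 Genomic lincRNA reads, 703 (64.6%) and 830 (71.2%) were on models that touched an annotated exon of their own gene. A further 152 and 189 lay where no annotated exon exists on either strand, which is intronic sequence or beyond the gene's ends. For 208 (19.1%) and 167 (14.3%), exons of a gene on the opposite strand covered at least 50% of the model, and for 131 and 99 of these reads the opposite gene was protein-coding. Gm10684 had 29 and 15 such reads on models lying wholly over exons of the sodium channel subunit gene Scn2b. All 30 and 36 reads of Gm26699 were on models covered to 55.2% and 70.4% by exons of Luc7l2, a splicing factor gene with 48 and 33 reads on its own strand. Whether strand assignment is exact for single-exon reads was not tested.

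Gm26699 models ended in both libraries beside a run of adenines in the genome. The 20 bases after the end of its model (chr6:38552893 in replicate 1 and 38552894 in replicate 2, minus strand) were all adenine. In Meg3 the model of 75 reads in replicate 2 was followed by 16 adenines in 20 bases and the model of 10 reads in replicate 1 by 15. The Meg3 models of 58, 50 and 9 reads in replicate 1 were followed by 3, 4 and 2 adenines, and those of 21 and 18 reads in replicate 2 by 7 and 2. The Xist model of 466 bases was followed by 4. The part of such runs in the reads was not tested. The sequences after these ends, on the strand of the RNA, are these.
Gm26699, both libraries: aaaaaaaaaaaaaaaaaaaa
Meg3, replicate 2: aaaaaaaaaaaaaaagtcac
Xist, both libraries: taaacttgcccatctgggct

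Meg3 had reads on models of every class. Genomic models held 178 and 204 of its reads, ISM 75 and 90, NIC 54 and 101, Known 18 and 13, and NNC 13 and 10. Its spliced reads, 161 and 214, reached 10 exons in both libraries. The commonest full chain was an unannotated 8-exon chain with 18 and 33 reads, and the next was another 8-exon chain with 11 and 23 reads. Both use annotated introns only, in a combination the annotation lacks. They share their first 7 exons and differ in the last, which starts 17.6 kb from the gene's 5′ end in the first chain and 30.4 kb from it, at the 3′ end of the gene, in the second. A 6-exon incomplete match with 27 and 30 reads starts inside the third exon of these chains and then follows the first of them.

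**Figure D3:**
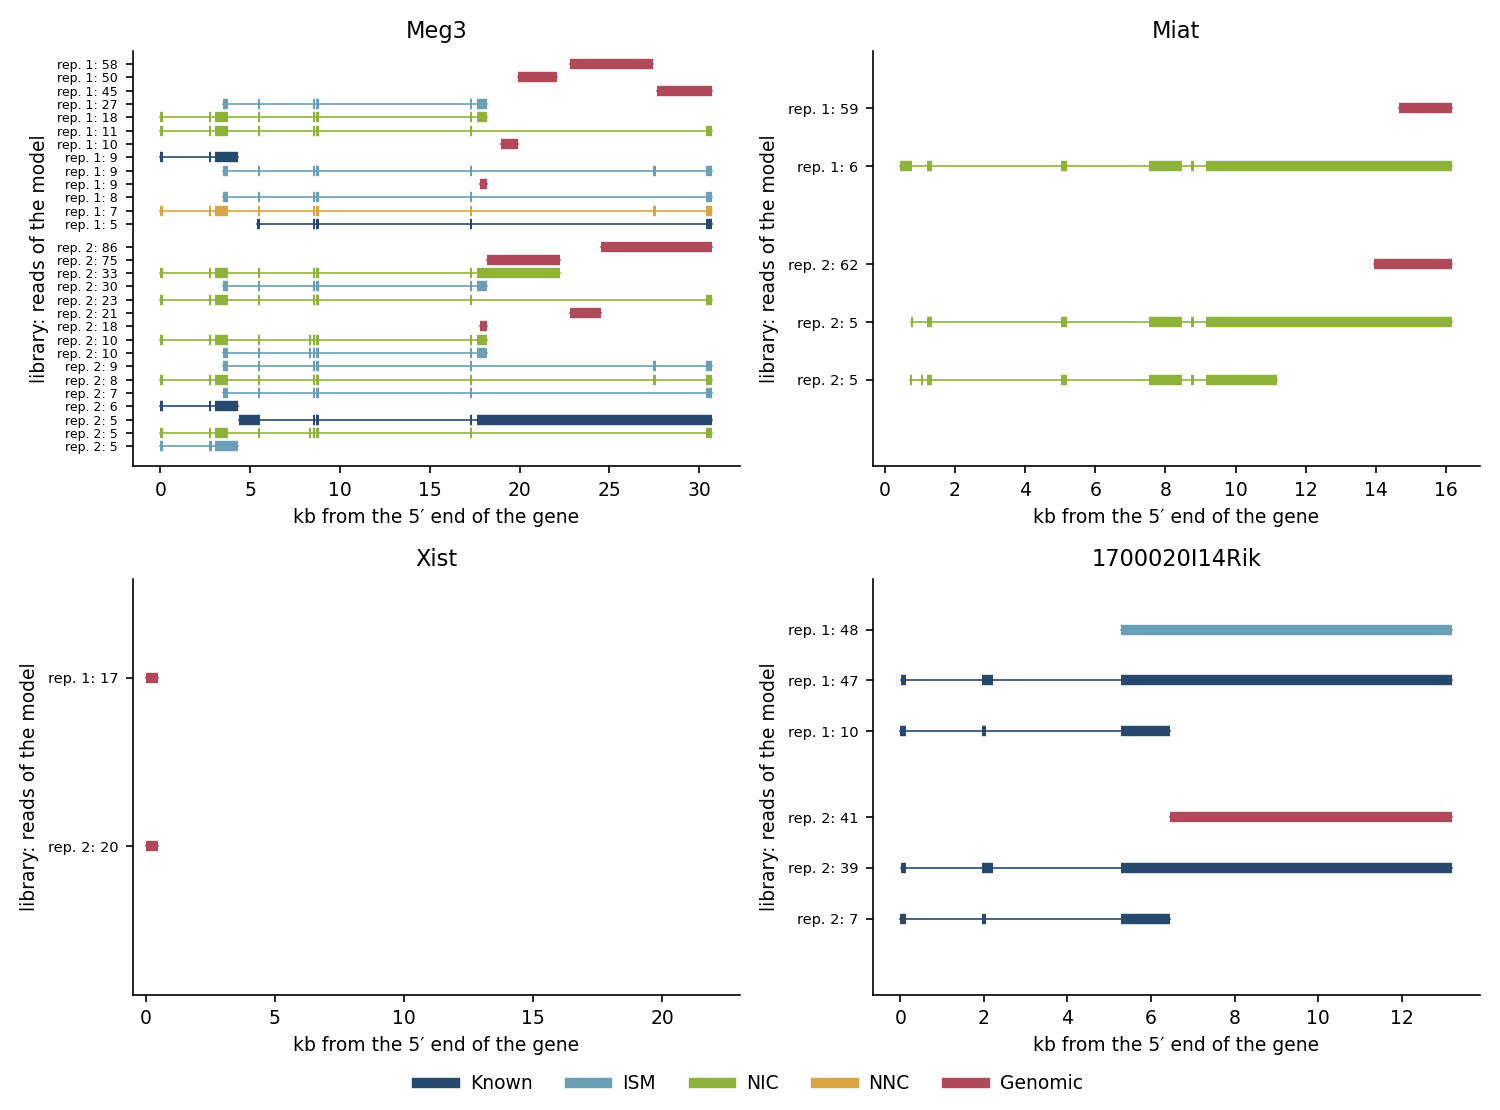
Models with 5 or more reads in Meg3, Miat, Xist and 1700020I14Rik, drawn as distance in kb from the 5′ end of the gene, with exons as thick bars and introns as thin lines, each line a model of a library labelled with its reads and coloured by class. Genomic models (red) of Meg3 and Miat sit in the downstream part of the gene, that of Xist at its 5′ end, and the last exon of 1700020I14Rik is ISM in replicate 1 and Genomic in replicate 2.

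Miat showed the same mixture at a lower level. Single-exon models at its 3′ end, of 1501 bases in replicate 1 and 2234 in replicate 2, held 59 and 62 of its 80 and 83 reads. Spliced reads numbered 21 and 18, among them a 6-exon chain of NIC class with 6 and 5 reads and a 7-exon one with 3 and 5. Known models held 0 and 2 reads. The window of ACTAAC repeats printed above lies upstream of these 3′ single-exon models, within the last exon.

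In 1700020I14Rik, single-exon models of the same last exon had different class labels in the libraries. Its annotated 3-exon transcript of 8300 bases had 47 and 39 reads, which is 42.7% and 43.8% of the gene. A further 48 reads of replicate 1 fell on a single-exon model of 7915 bases labelled ISM, and 41 reads of replicate 2 on a single-exon model of 6757 bases labelled Genomic. Both models lie in the last exon and end at the same base, chr2:119607502. The ISM and Genomic shares of the gene were 44.5% and 0% in replicate 1 and 2.25% and 46.1% in replicate 2, at levels of 103 and 118 RPM. The class shares of all lincRNA reads include this difference in labels.

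Gene by gene, isoform use ranged widely. In the 9 lincRNA genes with 20 or more full-chain reads in each library, the leading chain held a mean of 13.1% of such reads in Gm10419 (27 chains), 19.2% in Gm3764 (50 chains) and 23.7% in Meg3 (47 chains). The Gm10419 value rests on replicate 1, where its chain had 7 of 33 full-chain reads (21.2%). Replicate 2 had 1 of 20, and another chain had 3 there. The leading chain held 33.4% in Mir9-3hg, 44.4% in Pantr1 and 46.4% in C230057M02Rik. At the other end stood 1700020I14Rik with 80.9% and Snhg20 with 98.1%, whose 2-exon chain took 29 of 29 and 25 of 26 reads. The leading chain of 7 of the 9 genes is annotated. The exceptions were Meg3 and 4930570G19Rik, a gene divergent from the neural adhesion gene Negr1 with starts 48 bases apart.

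Among unannotated chains, that of 4930570G19Rik held 9 and 12 reads (40.9% and 54.6% of the gene). It joins 3 exons through an intron at chr3:156551238-156551850, minus strand, with 1 splice site outside the annotation. C230057M02Rik had a 2-exon chain with 23 and 7 reads whose single intron, chr8:122726555-122752113 on the minus strand, joins annotated splice sites and leaves out the middle exon of the annotated 3-exon chain, which had 22 and 11. The annotated chain led in replicate 2 and trailed by 1 read in replicate 1. Meg3 also had a 9-exon chain of 7 and 8 reads with 2 introns and 2 splice sites outside the annotation, the first of these introns at chr12:109558321-109568410. The authors classed it as NNC in replicate 1 and as NIC in replicate 2.

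Chains recurred less for lincRNA genes than for protein-coding genes. A chain counted as found in both libraries with 2 or more reads in either and 1 or more in the other. By this measure 167 of 1334 lincRNA chains recurred (12.5%), against 22.9% of 136338 protein-coding chains. Annotated lincRNA chains recurred in 84 of 247 cases (34.0%, protein-coding 65.1%), incomplete ones in 20 of 121 (16.5%) and unannotated full chains in 56 of 875 (6.40%, protein-coding 11.5%). Single reads made up 75.6% of lincRNA chains, and recurrence moves with read number, so the part of low level in this difference was not tested. By the median model length over reads, the longest lincRNA genes with 10 or more reads were Gm9866 (8487 bases, 2 exons, 34 and 22 reads), 1700020I14Rik (7915), Malat1 (6983), AC158975.2 (5721) and Dbpht2 (5341, a single exon, 2 and 8 reads).

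Annotated lincRNA transcripts that had reads more often carried a poly(A) signal than those that had none. The signal AATAAA, searched in the last 50 bases on the transcript's own strand, stood in 184 of 334 lincRNA transcripts with a read on them (55.1%), in 31 of 46 with 10 or more (67.4%) and in 2368 of 8207 with none (28.9%). In protein-coding transcripts the shares were 53.6%, 62.3% and 24.6%, so the same order held there. Counting the variant ATTAAA as well gave 66.5%, 71.7% and 37.4% for lincRNA transcripts. Transcripts with reads were also longer (median 1230.5 against 791 bases), and the part of length and annotation quality in this difference was not tested. The 3′ ends below are the last 50 bases of leading annotated transcripts, with the signal in capitals. They are shown for some of the genes whose Known models carry most of their reads.
2900097C17Rik: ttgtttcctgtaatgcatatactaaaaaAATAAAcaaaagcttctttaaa
1700020I14Rik: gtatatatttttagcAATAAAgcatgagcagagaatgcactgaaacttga
Pantr1: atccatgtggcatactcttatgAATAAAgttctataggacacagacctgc
Malat1: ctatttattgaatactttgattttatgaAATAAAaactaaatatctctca
Snhg20: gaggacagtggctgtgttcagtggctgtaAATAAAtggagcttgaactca
AY036118: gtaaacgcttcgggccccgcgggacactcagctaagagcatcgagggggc

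In the first 5 of these the signal began between 21 and 35 bases before the end. AY036118 had neither form. The same held for the leading annotated transcripts of Mir9-3hg (18 and 12 reads) and Meg3 (9 and 6), which are not shown. AY036118, a single exon of 923 bases on chr17:39847113-39848035, overlaps on the same strand an annotated ribosomal RNA gene and on the opposite strand the lincRNA Gm42418. It had 46 and 33 reads, Gm42418 had 24 and 16, and the neighbouring Gm26917 had 17 and 7. These strands are those of the annotation, and position alone does not tell reads of AY036118 from ribosomal RNA or its precursor. Whether they come from it, and from which of its strands, was not tested.

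Near-identical copies touched a few members. In a BLAST search of the 111 genes with 10 or more reads, 8 had a transcript of which at least 50% matched a gene elsewhere at 95% identity or more on the same strand. Gm10076, a single exon of 383 bases with 36 and 35 reads, matched the ribosomal protein gene Rpl41 over 100% of its length at 99.5% identity. Rpl41 had 529 and 376 reads. Which of them gave rise to the Gm10076 reads is uncertain, since the tables assign each read to 1 gene. AC158975.2 matched Gm42427 at 99.7% identity, and short annotated transcripts of 2900097C17Rik and Meg3 matched lincRNA genes without a read.

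LincRNA genes with reads lay nearer to protein-coding genes than those without. The median distance from the lincRNA start to the nearest coding start was 29778 bases for the 876 genes with a read, 16174 for the 111 with 10 or more and 80153 for the 4978 with none. A divergent coding start within 5000 bases was found for 17.6%, 26.1% and 4.98% of them. Exons of another gene on the opposite strand overlapped 23.4%, 33.3% and 10.5%. Exons of a gene of another type on the same strand, microRNA genes in a lincRNA exon included, overlapped 5.94%, 18.0% and 1.67%. Reads that the authors assigned to a lincRNA but that come from such a neighbour would move the same shares, and their part was not tested.

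**Figure D4:**
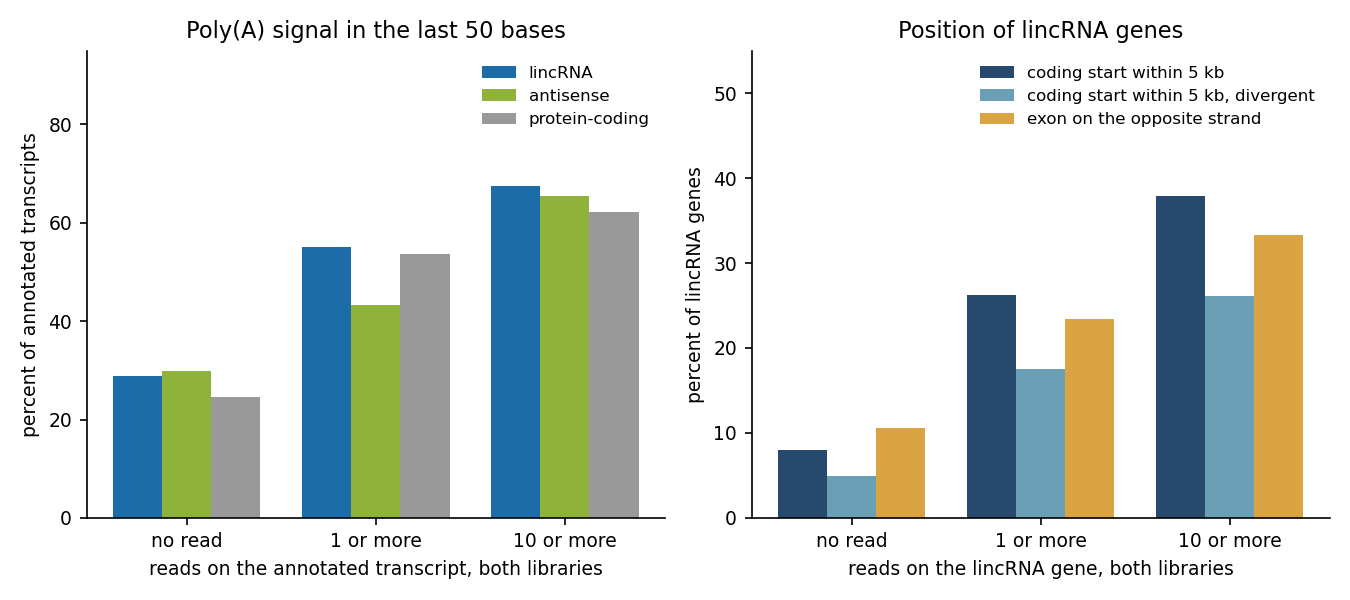
Left, the percentage of annotated transcripts with AATAAA in the last 50 bases, by gene type and by reads on the transcript over both libraries; right, the percentage of lincRNA genes with a protein-coding start within 5 kb, with a divergent one, or with an exon of another gene on the opposite strand, by reads on the gene. The shares are highest for lincRNAs with 10 or more reads, at 67.4% with the signal and 33.3% with an opposite-strand exon.

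Between the libraries, 4 of the 111 lincRNA genes with 10 or more reads were called by a two-sided exact binomial test with Benjamini-Hochberg adjustment over all 11339 genes, which weighs counting error alone. Over all genes 0.882% were called (100 of 11339, of which 41 were higher and 59 lower in replicate 2). The lincRNA share was 3.60%, from 4 genes. At an unadjusted p under 0.05 there were 12 lincRNA genes (10.8%) and 975 genes in all (8.60%). The median log2 ratio of the 111 genes was 0.17, with 67 above and 43 below 0, beside -0.00 for all genes tested, and 90 of the 111 lay within 1 of 0.

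Meg3 had 315 RPM in replicate 1 and 555 in replicate 2, a 1.76-fold difference (log2 ratio 0.82, exact test adjusted p = 9.83e-12). Levels by class are given with no test between classes. Known models stood at 16.8 and 17.2 RPM (18 and 13 reads) and NNC chains at 12.1 and 13.3 RPM. ISM models stood at 69.9 and 119 RPM, NIC chains at 50.4 and 134 RPM and Genomic models at 166 and 271 RPM. On Known models alone the log2 ratio was 0.13 and the call was lost, with an exact test adjusted p of 1.000. With so few reads there, the lost call cannot tell an equal level from a difference too small to call.

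2310075C17Rik had 12 and 79 reads, or 11.2 and 105 RPM, a 9.37-fold difference (log2 ratio 3.18, exact test adjusted p = 4.48e-16). It lies on chr9:112227579-112228242, plus strand, opposite the neuronal gene Arpp21. All but 1 of its reads were on single-exon Genomic models, 572 bases long in replicate 1 (11 reads) and 3420 in replicate 2 (79 reads). In replicate 1 a separate unannotated locus of 26 reads on the same strand (chr9:112228242-112231137) began at the last base of the shorter model and covered the rest of the longer one, so that in replicate 1 the span was divided between the models. The part of this division in the difference was not tested.

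AC154200.1 had 43 reads in replicate 1 (40.1 RPM) and none in replicate 2, which makes it at least 10.1-fold lower there against a floor of 3 reads per library (exact test adjusted p = 1.06e-07). All 43 lay on a Genomic model of 280 bases that touched no exon of the gene. On the strand of the RNA, that model began at chr17:17345456, the last base of Oaz1-ps, a processed pseudogene on the same strand. Oaz1-ps had 11 reads in replicate 1 and 31 in replicate 2, opposite in direction to AC154200.1. AC163221.1 had no read in replicate 1 and 10 in replicate 2 (13.3 RPM), at least 4.74-fold higher there (exact test adjusted p = 0.0215), on spliced models of up to 3 exons.

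**Figure D5:**
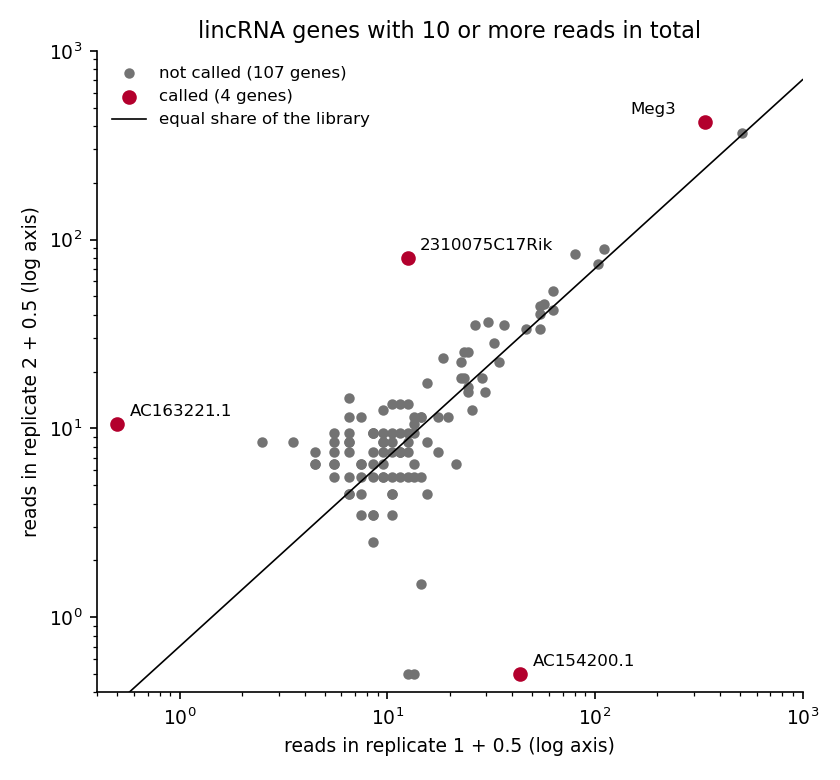
Reads in replicate 1 and replicate 2 (each plus 0.5, log axes) of the 111 lincRNA genes with 10 or more reads in total, with some points overlapping; the line marks an equal share of each library, and red points are the 4 genes called by the exact test. Meg3 lies above the line at 338 and 418 reads, and AC154200.1 and AC163221.1 have no read in a library.

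The other abundant lincRNA genes were not called. Miat had a log2 ratio of 0.56 (exact test adjusted p = 0.351) and AC102496.1 of 0.93 (exact test adjusted p = 0.347). Gm26699 had a log2 ratio of 0.77 (exact test adjusted p = 0.507) and Xist of 0.85 (exact test adjusted p = 0.601). Before adjustment, the exact test p was 0.0136 for Miat, 0.0130 for AC102496.1, 0.0332 for Gm26699 and 0.0580 for Xist. The lack of a call therefore does not show that the libraries were equal for these genes. Pvt1 had a log2 ratio of -1.22 and an exact test adjusted p of 0.579. Meg3 was the only call among the lincRNA genes on the imprinted, neural and nuclear-retained lists (of 1, 6 and 4 tested), and none was called of the 2, 5, 4 and 2 tested on the lists of cytoplasmic or decay RNAs, microRNA hosts, small nucleolar RNA hosts and X inactivation. The most even of the 6 leading genes were 2900097C17Rik and Pantr1, with log2 ratios of 0.02 and 0.03.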

How the data were processed

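Long-read RNA sequencing was done on total RNA of 2 left cerebral cortex libraries. Per the deposited notes with each sample, the authors aligned reads to mm10 with GENCODE M21, and the file headers name TALON as the source of new models. For the aligner and all versions, the sources used here give no name. The deposited unit is the whole-number count of reads per transcript model, with 1 library per table and no normalization by the authors. Counts were summed per gene, and exons and lengths were read from the deposited models.

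RPM were scaled to mouse reads without spike-in reads (14936 and 8856), meaning reads on ERCC or SIRV sequences. A single group gives no contrast of conditions, so the libraries were compared gene by gene by an exact binomial test (two-sided) on the library totals, for the 11339 genes with 10 or more reads, with Benjamini-Hochberg adjustment and a threshold of 0.05. Log2 ratios used a pseudocount of 0.5 reads. The test was also run on simulated counts that held counting error alone. That run cannot show how the test behaves where samples vary beyond counting error. Named genes were the 20 with the highest mean RPM, members of functional lists with 10 or more reads or at 0, called genes, and those with the longest models, most exons, leading unannotated chains, lowest leading-isoform shares or single exons. Genes given as examples of overlap, of microRNA ends and of low list members were named after their values were seen. Members and lists were chosen with earlier results of these data known.

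Sequences came from RefSeq (GRCm38.p6) for microRNAs and from GENCODE M21 transcripts otherwise. Copies were searched with BLAST 2.17.0. Alternatives were other model sets, scalings (edgeR 4.0.16 TMM, DESeq2 1.42.0 size factors, spike-in reads), filters, pseudocounts and each library left out. R 4.3.3, Python 3.11.15, pandas 2.3.3, numpy 2.4.6, SciPy 1.17.1 and matplotlib 3.10.9 were used.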

Additional observations from a re-analysis of the deposited data

How the results depend on the processing

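Of 343 alternative values, 310 stayed on the same side of the threshold or within the spread, 31 moved, and 1 lost and 1 gained a call. No called value changed sign, while 11 log2 ratios that were not called did. Of the 343 values, 269 were log2 ratios of named genes, where a gene that stayed uncalled counted as the same. For shares, exon number and length, leaving out a library could not count as moved, since the spread came from the same 2 libraries. The count of 310 is therefore not a measure of robustness. On annotated models alone, 273 lincRNA genes were detected, their share of reads was 0.234%, the median level 1.74 RPM, the median length 1628 bases, the leading isoform held 83.6% of reads (3 genes, against 44.0% over 9), and 0 genes were called by the exact binomial test (2 of 44 at an unadjusted p under 0.05). Without Genomic models the share of reads was 0.272%, the multi-exon share 64.4%, the median exon number 2.00, the Known, ISM, NIC and NNC shares 60.0%, 10.6%, 12.1% and 17.3%, and 2 genes were called, AC163221.1 and Meg3. Without lincRNA genes overlapping another gene type on the same strand the share of reads was 0.293% and those classes held 44.2%, 5.66%, 5.79% and 13.3%. That setting counted a microRNA gene in a lincRNA exon as an overlap, so Meg3, the host of Mir770, was also left out. Without 2900097C17Rik and Meg3, an alternative chosen after seeing the data, the values were 0.292% of reads, 51.3% multi-exon, a median of 1.5 exons, and 35.5%, 6.15%, 7.55% and 14.7% by class. With 10 or more reads in a library 72 genes were detected, and with 10 or more in total the median level was 9.97 RPM. Leaving out a library gave median levels of 1.33 to 1.87 RPM. Chains with 2 or more reads in each library numbered 97. TMM, DESeq2 size factors and no filter each called 4 genes. Counting overlapping genes together called 5 of 125 groups that hold a lincRNA gene. The added call was the group of Mobp and Gm38642, so it is not a call of a lincRNA gene alone. Spike-in scaling called 5, adding Miat (log2 ratio 0.81, exact test adjusted p = 0.0231). It moved the median log2 ratio of all genes to 0.24 and of lincRNA genes to 0.42. Except where a setting removes reads or genes, the cause was not tested. No paired analysis was possible because the libraries form a single group.

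Most lincRNA genes rested on a few reads, so a gene at 0 or 1 read was at the limit of detection, and recurrence of chains was limited by depth. Model lengths and ends are those of the authors' models and not of reads. With 2 libraries, an SD rests on 2 values, and the test weighs counting error alone.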
